A study of Mus musculus with 60 samples.

Results

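Kidney transcripts of mice without a tubular clock were compared between lights on (ZT0) and a time 4 h into the light phase (ZT4). ZT is zeitgeber time, in hours after the light goes on. All cKOt mice at these times were taken, which gave 5 mice at ZT0 and 5 at ZT4, so 10 of the 60 mice of the study. They were male Bmal1lox/lox/Pax8-rtTA/LC1 mice of C57BL/6J background. In them doxycycline (2 mg/ml in drinking water with 20 mg/ml sucrose, for 2 weeks from 8 weeks of age) turns on the Cre recombinase under a Pax8-driven activator, and Cre removes part of Bmal1 (Arntl) in the cells of the renal tubule. The control mice were Bmal1lox/lox littermates that carried the same floxed alleles and received the same doxycycline, 5 at each time. All were kept under 12 h of light and 12 h of dark with free access to food. By the methods of the study, the kidneys were taken 4 weeks after the doxycycline ended. Different animals were killed at each time, and the study chose these 5 of a larger number per group by RNA quality and distance from the other replicates. Pax8 is active along the tubule, so the deletion is not aimed at podocytes, vessels or interstitial cells. By the labels the RNA came from renal tubules, and by the methods of the study from frozen pieces of kidney.

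In the circadian clock, BMAL1 pairs with CLOCK or NPAS2 and binds E-box sequences of the Per, Cry, Nr1d1, Nr1d2 and Dbp genes. PER and CRY proteins then block this pair, and the nuclear receptors REV-ERBα (Nr1d1) and REV-ERBβ (Nr1d2) repress Bmal1, Npas2, Cry1 and Nfil3 through elements that ROR receptors activate. Kidney cells also receive daily signals from outside, among them body temperature, food and steroid hormones. Nocturnal mice eat little after lights on, and their body temperature falls as they go to rest.

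The 10 libraries held 17791420 to 19691384 reads on genes (median 18655802). Expression is given as CPM, the reads of a gene scaled to the TMM-adjusted size of its library, and fold changes are log2 values of ZT4 against ZT0. They come from the edgeR quasi-likelihood fit of all 60 samples with 2 factors of unwanted variation (RUVs), and a gene was called when its p value, adjusted over all 15546 tested genes, was under 0.05. ZT4 replicate 5 stood apart. On the first principal component of the 10 libraries, which held 29% of the variance, it lay at 55.1, the other ZT4 mice at -7.03 to 15.9 and the ZT0 mice at -17.7 to -5.68. Log2 values in that library were set against the mean of the other ZT4 libraries. Genes in the lowest quartile of GC content were 0.331 above this mean in the median. Genes in the highest quartile were 0.547 below it (a deviation of -0.547). ZT4 replicate 5 was kept, and results that rest on it are given without it as well. Every library held markers of all tubule segments, and also those of podocytes (summed 309 to 349 CPM at ZT0 and 328 to 382 at ZT4), endothelium (419 to 449 and 441 to 470) and fibroblasts with smooth muscle (200 to 253 and 164 to 226). In such bulk RNA, fewer cells of a type and less RNA per cell cannot be told apart.

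Between ZT0 and ZT4 the kidneys of cKOt mice raised the REV-ERB genes and a mixed group of other transcripts, and they lowered Per2, heat shock genes and genes of protein folding in the endoplasmic reticulum (ER). Of the 15546 genes, 1179 were called (7.58%), 505 higher (3.25%) and 674 lower (4.34%). Most changes were small. The median size of a called change was 0.321 on the log2 scale, 143 genes rose and 70 fell by more than 1.5-fold, and 40 rose and 24 fell by more than 2-fold. In 528 of the called genes (44.8%) no mouse of one time lay within the range of the other, against 5.82% of all tested genes. Without the RUVs factors 395 genes were higher and 335 lower, which turned the larger share from falls to rises. Without ZT4 replicate 5 the counts were 464 and 614. The libraries that moved them most were ZT0 replicate 3, without which 261 were higher and 388 lower, and ZT4 replicate 4, without which they were 292 and 404. Fitted within batches, that is with batch as a block, no RUVs factors and only mice of batches that hold both times of their genotype (8 cKOt mice in 4 batches), 266 genes rose and 304 fell. With batch in place of the RUVs factors over all samples, 410 rose and 333 fell.

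Among the repressors of the clock, 3 of the 10 tested genes rose (30%, against 3.25% of all genes) and 1 fell (10%, against 4.34%). The median of the list was 0.09 (all genes -0.01). Nr1d1 (ENSMUSG00000020889, chr11:98767932-98775333, minus strand on GRCm38, as are the positions that follow) was at 4.56, 2.67, 2.79, 1.99 and 3.83 CPM in the mice at ZT0 and at 14.7, 8.47, 13.4, 15.3 and 8.28 CPM in those at ZT4. Every mouse at ZT4 was above every mouse at ZT0 (log2 fold change 2.09 ± 0.27 (SE), adjusted p = 1.02e-06). This gene shares its end with a gene on the opposite strand, and whether the counting used the strand is not given in the sources used here. Nr1d2 (ENSMUSG00000021775, chr14:18204054-18239127, minus strand) was at 12.9, 22.4, 16.2, 17 and 14.2 CPM at ZT0 and at 33, 30.9, 42.1, 41.1 and 56.1 CPM at ZT4. The groups did not overlap, and ZT4 replicate 5 was the highest (log2 fold change 1.21 ± 0.152 (SE), adjusted p = 8.53e-07). In both REV-ERB genes the call held under all 21 alternatives, with adjusted p up to 0.00189 and 0.00192.

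Per2 (ENSMUSG00000055866, chr1:91415982-91459324, minus strand), which encodes a partner of CRY in the repression of BMAL1, went the other way. It was at 81.3, 63.2, 80, 71.7 and 62 CPM at ZT0 and at 36.7, 38.2, 32.2, 30.9 and 30.4 CPM at ZT4. The lowest mouse at ZT0 exceeded the highest at ZT4 (log2 fold change -1.06 ± 0.16 (SE), adjusted p = 2.11e-05), also under every alternative (adjusted p up to 0.00152). Per2 is also known as a gene that steroid hormones, temperature and cyclic AMP can induce without BMAL1. In contrast, Per1 was at 9.07 to 17.7 CPM at ZT0 and 6.49 to 15.3 at ZT4 (log2 fold change 0.04, adjusted p = 0.942), and Per3 at 8.04 to 10.9 and 8.37 to 11 CPM (log2 fold change 0.13, adjusted p = 0.744). Cry2 rose slightly, from 37.6, 35.9, 34.6, 39.6 and 34.4 CPM to 41.5, 48.3, 38.5, 46.1 and 36.6 CPM, with overlap (log2 fold change 0.28 ± 0.0643 (SE), adjusted p = 0.0032). Its call rested on the RUVs factors, since adjusted p was 0.153 without them and ranged from 0.00101 to 0.253 over 21 alternatives.

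The targeted gene Arntl (ENSMUSG00000055116, chr7:113207465-113314126, plus strand) was at 23.5, 25.2, 22.8, 26.8 and 23.9 CPM at ZT0 and 20.2, 21.3, 19.8, 20.7 and 17.4 CPM at ZT4. All values at ZT4 lay below those at ZT0, but the change did not pass the test (log2 fold change -0.36 ± 0.202 (SE), adjusted p = 0.317). The counts cover the whole gene, and these values include transcripts that lack the deleted part as well as those of cells outside the tubule, and they do not check the deletion. Its partners were at 136 to 171 CPM (Clock) and 36.3 to 48.6 CPM (Npas2) at ZT0, and at 111 to 184 and 43.7 to 57.8 CPM at ZT4. Clock fell in the test (log2 fold change -0.30 ± 0.0955 (SE), adjusted p = 0.0371), a call that was lost without any 1 of ZT0 replicates 2, 3, 4 and 5 or ZT4 replicates 1, 2 and 4 (adjusted p from 0.022 to 0.674 over 21 alternatives). The Clock call was also lost without the RUVs factors, within batches and without the filter on low counts. Npas2 did not pass (log2 fold change 0.20, adjusted p = 0.598), nor did Rora (log2 fold change 0.18, adjusted p = 0.339), which encodes a nuclear receptor.

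Of the 6 tested outputs of the clock, 1 was called, as higher (16.7%, against 3.25% of all genes). Dbp, a PAR bZIP factor that acts on D-boxes and a direct target of BMAL1, was at 3.15, 2.67, 1.82, 1.99 and 2.86 CPM at ZT0 and 4.67, 3.41, 4.16, 4.64 and 3.3 CPM at ZT4. Each mouse at ZT4 was above each at ZT0 (log2 fold change 0.86 ± 0.267 (SE), adjusted p = 0.0357), yet the call was lost without any 1 of ZT0 replicates 2, 3 and 4 or ZT4 replicates 1, 3, 4 and 5 (adjusted p from 0.00715 to 0.199 over 21 alternatives). Dbp was also not called without the RUVs factors. Its relatives Tef (199 to 228 CPM and 197 to 237 CPM) and Hlf (131 to 145 and 131 to 151) showed no called change (adjusted p = 0.78 and 0.783). The repressor Nfil3, which competes with these factors for D-boxes, was at 20.4, 18.8, 17.2, 22 and 28.9 CPM at ZT0 and 17.9, 16.3, 18.7, 17.2 and 17.2 CPM at ZT4 (log2 fold change -0.36, adjusted p = 0.516). Usp2 (adjusted p = 0.386) and Wee1 (0.204) were not called either.

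**Figure D1:**
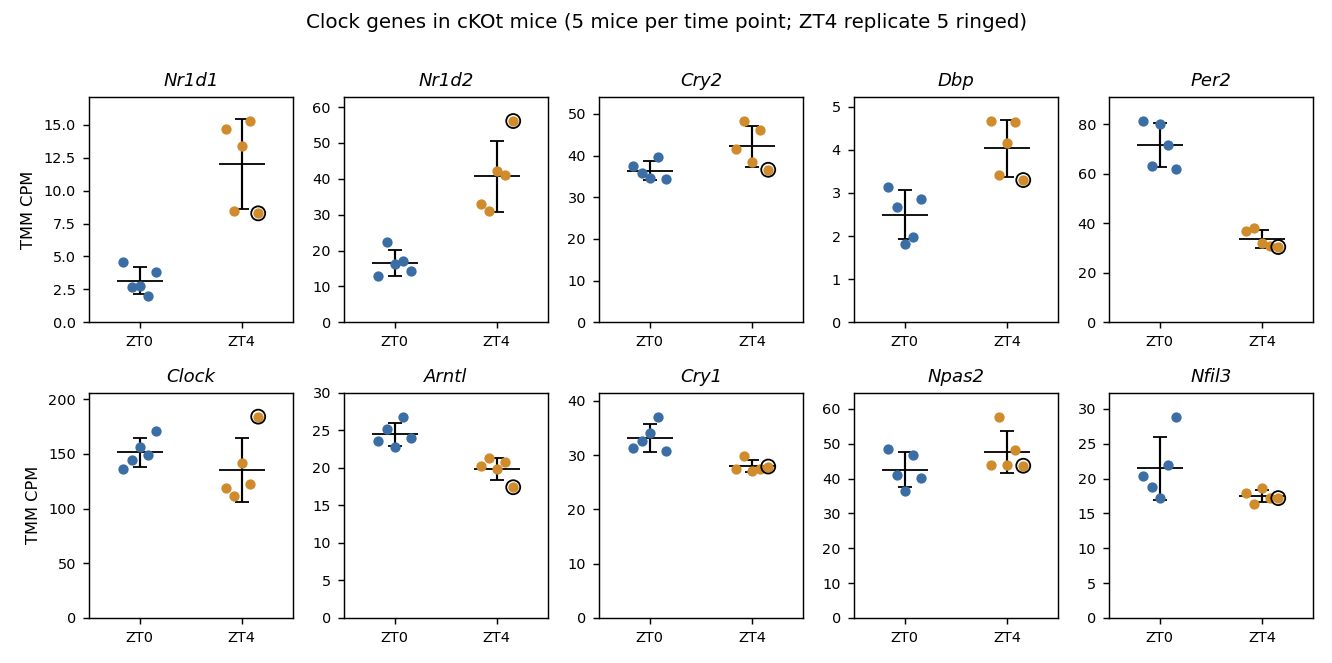
Level of 10 clock genes (y axis, TMM CPM from 0) in each cKOt mouse at ZT0 (blue) and ZT4 (orange), with bars for mean ± SD of 5 mice and a ring around ZT4 replicate 5. Nr1d1, Nr1d2 and Dbp at ZT4 lie above all mice at ZT0, Per2, Arntl and Cry1 lie below them, and the other genes overlap.

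More clock genes were called in control mice over the same 4 h. There 881 genes rose (5.67%) and 952 fell (6.12%), and in the clock lists 7 of 10 repressors were higher and 1 lower, 4 of 6 output genes higher and 1 lower, and 4 of 5 activators lower. Without the RUVs factors the totals in control were 506 and 503. Within batches they were 175 and 186, below the 266 and 304 of cKOt, so which genotype had more calls over all genes turned with the fit. Of the 21 clock genes tested, 17 were called in control and 6 in cKOt mice, and within batches 15 and 4. The difference of the ZT4 minus ZT0 change between genotypes, tested in the same fit as an interaction, was called in 45 genes (0.289%), 31 changing more upward in cKOt and 14 more downward. DESeq2 gave 49 and 26. Without control ZT4 replicate 2 there were 19 and 7. The genes more downward numbered 7 without control ZT0 replicate 1, 9 without any 1 of control ZT4 replicate 1 and cKOt ZT4 replicates 3 and 4, and 27 without control ZT0 replicate 5, and within batches 15 were more upward. Of the 45 genes, 36 changed in control and were not called in cKOt, 4 were called in cKOt alone, and 5 in both.

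Members of the clock made up 9 of the 45. Dbp stood at 2.5 ± 0.57 CPM (SD, n = 5) at ZT0 and 4.04 ± 0.656 at ZT4 in cKOt, and at 2.81 ± 1.54 and 47.2 ± 11.8 in control mice (difference -3.14 ± 0.36 (SE), adjusted p = 3.33e-08). Ciart, a BMAL1 repressor, was at 0.374 to 1.3 CPM at ZT0 and 0.224 to 0.564 at ZT4 in cKOt, near the lower limit of expression, and rose from 1.42 to 9.67 CPM in control mice (difference -3.52 ± 0.65 (SE), adjusted p = 0.00158). Tef (difference -0.97 ± 0.131 (SE), adjusted p = 2.62e-06) and Per3 (difference -1.31 ± 0.235 (SE), adjusted p = 0.00113) likewise rose in control mice. In all of them the cKOt change was the smaller or opposite one.

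Genes under REV-ERB and ROR control fell in control mice between these times and were not called in cKOt. Cry1 was at 31.3, 32.7, 34, 37.1 and 30.8 CPM at ZT0 and 27.4, 29.8, 27, 27.5 and 27.9 CPM at ZT4 in cKOt, whereas its mean went from 11.4 to 2.75 CPM in control mice (difference 1.79 ± 0.172 (SE), adjusted p = 1.9e-10). Nfil3 fell in control mice from 20.4 to 2.76 CPM (difference 2.50 ± 0.469 (SE), adjusted p = 0.00198), Npas2 from 17.6 to 5.08 CPM (difference 2.00 ± 0.307 (SE), adjusted p = 5.38e-05) and Arntl from 48.4 to 10.3 CPM (difference 1.86 ± 0.291 (SE), adjusted p = 8.08e-05). At ZT4 all 4 were higher in the mean in cKOt than in control mice. Within batches, with fewer mice in the fit, the differences of Ciart, Npas2 and Per3 no longer passed (adjusted p up to 0.0693), although all 3 passed with batch in place of the RUVs factors over all samples. Those of Dbp, Tef, Cry1, Nfil3 and Arntl held under all 30 alternatives.

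For the REV-ERB genes themselves no difference in the change was called. In control mice Nr1d1 (2.08 ± 0.208 (SE), adjusted p = 1.55e-10) and Nr1d2 (1.50 ± 0.135 (SE), adjusted p = 6.94e-12) rose too. At both times the mean level was lower in cKOt, with 3.17 and 12 CPM of Nr1d1 against 16.6 and 74.5 in control mice. The test gave no call for Nr1d1 (difference 0.01 ± 0.282 (SE), adjusted p = 1) or for Nr1d2 (difference -0.30 ± 0.205 (SE), adjusted p = 0.854). The fall of Per2 in cKOt was not called in control mice (-0.35 ± 0.162 (SE), adjusted p = 0.167), but the difference did not pass (difference -0.71 ± 0.23 (SE), adjusted p = 0.275). Cry2 rose in control mice as well (0.65 ± 0.068 (SE), adjusted p = 7.74e-10).

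Promoter sequences show where the letters of clock elements stand in genes whose change differed between the genotypes. The sequences are from RefSeq on GRCm38.p6, given 5′ to 3′ on the strand of the gene, as the 250 bases before the transcript start. A promoter was at hand for 11416 of the tested genes. The E-box letters CACGTG, which read the same on both strands, were in 6.02% of all 32851 promoters of the table, in the promoters of 9.57% of these genes, of 10 of 38 genes that differed between genotypes (26.3%) and of 4 of 8 clock repressors. In Ciart (chr3:95882229-95882478, minus strand) the E-box occurred 3 times, from 116 to 44 bases before the start, and in Cry1 (chr10:85185055-85185304, minus strand) and Tef (chr15:81802423-81802672, plus strand, the first of 2 listed starts) it occurred 1 time. Nfil3 (chr13:52981040-52981289, minus strand) held the ROR and REV-ERB element TAGGTCA, searched on both strands, which is in 2.23% of all promoters and 2.06% of the tested genes. In these 250 bases it was in 0 of 4 clock activators and 0 of 8 clock repressors with a promoter, so Arntl and Cry1 did not hold it. Capitals mark these elements.
Ciart: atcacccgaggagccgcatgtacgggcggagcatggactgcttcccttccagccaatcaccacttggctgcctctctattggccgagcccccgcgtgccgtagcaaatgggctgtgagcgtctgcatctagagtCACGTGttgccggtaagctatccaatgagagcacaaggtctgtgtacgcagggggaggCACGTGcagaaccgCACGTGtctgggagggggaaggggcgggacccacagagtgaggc
Cry1: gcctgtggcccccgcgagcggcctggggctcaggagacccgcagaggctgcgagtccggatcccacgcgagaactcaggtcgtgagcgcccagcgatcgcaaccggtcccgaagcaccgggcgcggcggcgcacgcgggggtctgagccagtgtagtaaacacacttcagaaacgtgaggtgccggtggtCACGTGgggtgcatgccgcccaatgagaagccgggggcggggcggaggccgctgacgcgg
Tef: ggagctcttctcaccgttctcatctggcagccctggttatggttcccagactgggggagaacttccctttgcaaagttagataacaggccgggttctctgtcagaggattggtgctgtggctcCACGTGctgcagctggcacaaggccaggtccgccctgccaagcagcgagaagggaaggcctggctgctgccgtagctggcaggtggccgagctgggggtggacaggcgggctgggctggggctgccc
Nfil3: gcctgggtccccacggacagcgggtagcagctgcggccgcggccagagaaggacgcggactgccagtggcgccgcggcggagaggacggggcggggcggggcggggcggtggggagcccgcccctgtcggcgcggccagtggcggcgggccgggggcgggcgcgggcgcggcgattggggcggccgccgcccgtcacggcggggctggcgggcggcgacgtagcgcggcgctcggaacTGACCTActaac
Both REV-ERB genes had a promoter in the table, and neither held CACGTG in these 250 bases, which says nothing of sites elsewhere.

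Heat shock genes fell together. They encode chaperones and cochaperones that heat shock factor HSF1 induces when proteins unfold. Of the 20 genes of the list, 12 were lower at ZT4 (60%, against 4.34% of all genes), 0 higher, and the median was -0.43. Without ZT4 replicate 5 there were 11, without ZT0 replicate 3 there were 7, and within batches 8. Dnajb1, the HSP40 cochaperone that feeds clients to HSP70 (ENSMUSG00000005483, chr8:83608193-83612653, plus strand), was at 54.4, 53.3, 60.6, 48.7 and 57.2 CPM at ZT0 and 27.4, 27.4, 26.3, 27 and 24.9 CPM at ZT4. The ranges lay far apart (log2 fold change -1.01 ± 0.189 (SE), adjusted p = 0.000328). Hsph1 (HSP110), the nucleotide exchange factor of HSP70 (ENSMUSG00000029657, chr5:149614287-149636376, minus strand), was at 201, 195, 259, 158 and 174 CPM at ZT0 and 108, 96.6, 114, 104 and 113 CPM at ZT4, again without overlap (log2 fold change -0.94 ± 0.176 (SE), adjusted p = 0.000328). Chordc1, a cochaperone of HSP90, was at 97.7, 83.1, 103, 76.3 and 93.2 CPM at ZT0 and 62.1, 62.9, 62.8, 53.6 and 81.3 CPM at ZT4, and only ZT4 replicate 5 reached into the range of ZT0 (log2 fold change -0.61 ± 0.0986 (SE), adjusted p = 4.62e-05). The calls of Dnajb1, Hsph1 and Chordc1 held under all 21 alternatives.

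The other heat shock genes moved less or varied more between mice. Hspa4, an HSP110 relative, went from 208 to 236 CPM at ZT0 to 183 to 218 CPM at ZT4 (log2 fold change -0.24 ± 0.0445 (SE), adjusted p = 0.000383), which was not called without the RUVs factors (adjusted p = 0.108, and 6.65e-05 to 0.237 over 21 alternatives). The inducible HSP70 genes Hspa1a and Hspa1b, near-identical copies whose reads cannot be well separated, were at 6.19, 9.62, 11.6, 6.31 and 4.48 CPM and 9.39, 15.1, 15.6, 8.78 and 7.39 CPM at ZT0. At ZT4 they were at 4.42, 3.16, 4, 3.73 and 3.08 CPM and 6.6, 2.86, 6.88, 6.11 and 3.97 CPM. Neither passed the test (log2 fold change -0.87, adjusted p = 0.109 and -0.93, adjusted p = 0.0812), although no mouse at ZT4 reached the range of ZT0. In control mice 16 of the 20 genes fell (against 6.12% of all genes in control), all 12 of the cKOt calls among them, with a median of -0.40. No gene of the list differed in its change between genotypes by edgeR, DESeq2 or limma, and 1 did at an unadjusted p under 0.05.

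Cirbp, which encodes a cold-inducible RNA-binding protein, went up as the heat shock genes went down. It was at 17, 22.5, 14.9, 26.1 and 17.2 CPM at ZT0 and 34.1, 29.7, 29.8, 38.8 and 21.2 CPM at ZT4. Of the ZT4 mice, replicate 5 alone lay within the ZT0 range (log2 fold change 0.84 ± 0.157 (SE), adjusted p = 0.000341). The rise was not called when the 10 cKOt samples were fitted alone (adjusted p = 0.0606, and 1.01e-05 to 0.0606 over 21 alternatives). Its relative Rbm3 was at 42.9 to 57.1 CPM at ZT0 and 43.2 to 49.8 CPM at ZT4 (log2 fold change -0.19, adjusted p = 0.313). In control mice Cirbp rose by 0.80 (adjusted p = 0.000295).

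Genes of ER folding and the unfolded protein response fell as well, 11 of 26 (42.3%, against 4.34% of all genes), with 0 higher and a median of -0.21. Hspa5, the ER chaperone BiP (ENSMUSG00000026864, chr2:34771970-34777547, plus strand), was at 658, 515, 906, 515 and 650 CPM at ZT0 and 424, 451, 369, 443 and 404 CPM at ZT4. The ranges did not overlap, and the spread at ZT0 was far wider than at ZT4 (log2 fold change -0.69 ± 0.146 (SE), adjusted p = 0.00158). Creld2, an ER disulfide isomerase, was at 28.2, 27, 46.1, 25.6 and 31.6 CPM at ZT0 and 17.6, 21, 16.6, 19.2 and 12.8 CPM at ZT4 (log2 fold change -0.83 ± 0.183 (SE), adjusted p = 0.00238). Manf, a secreted ER stress factor, was at 47.9, 42.9, 69, 35.7 and 56.1 CPM at ZT0 and 30.5, 32, 30, 34.5 and 32 CPM at ZT4 (log2 fold change -0.73 ± 0.16 (SE), adjusted p = 0.00218). In each of these genes the mice of the 2 times formed separate ranges, and ZT0 replicate 3 was the highest.

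Hyou1, an ER relative of HSP110, fell from 106 to 168 CPM at ZT0 to 64.9 to 96.1 CPM at ZT4 (log2 fold change -0.60 ± 0.13 (SE), adjusted p = 0.00196). Ddit3, which encodes the stress factor CHOP, was at 9.55, 11, 16.6, 11.3 and 10.7 CPM at ZT0 and 5.99, 4.66, 4.93, 4.14 and 4.36 CPM at ZT4 (log2 fold change -1.17 ± 0.237 (SE), adjusted p = 0.000974). Again ZT0 replicate 3 stood above the other 4 mice of its group. Without that library 5 of the 26 genes were called, and without ZT4 replicate 5 there were 7. The calls of Hspa5, Creld2, Hyou1 and Ddit3 held under all 21 alternatives, while Manf was just missed within batches (adjusted p = 0.0502, and 0.00103 to 0.0502 over 21 alternatives). Hsp90b1 (GRP94) also fell (log2 fold change -0.34 ± 0.106 (SE), adjusted p = 0.0342), but not without any 1 of ZT0 replicates 1 and 3 or ZT4 replicates 2, 3 and 5 (adjusted p from 0.0191 to 0.542 over 21 alternatives). In control mice 14 of the 26 genes fell (against 6.12% of all genes in control), 10 of the 11 among them. The change differed between genotypes in 0 of 26 genes by edgeR, DESeq2 or limma (3 at an unadjusted p under 0.05).

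**Figure D2:**
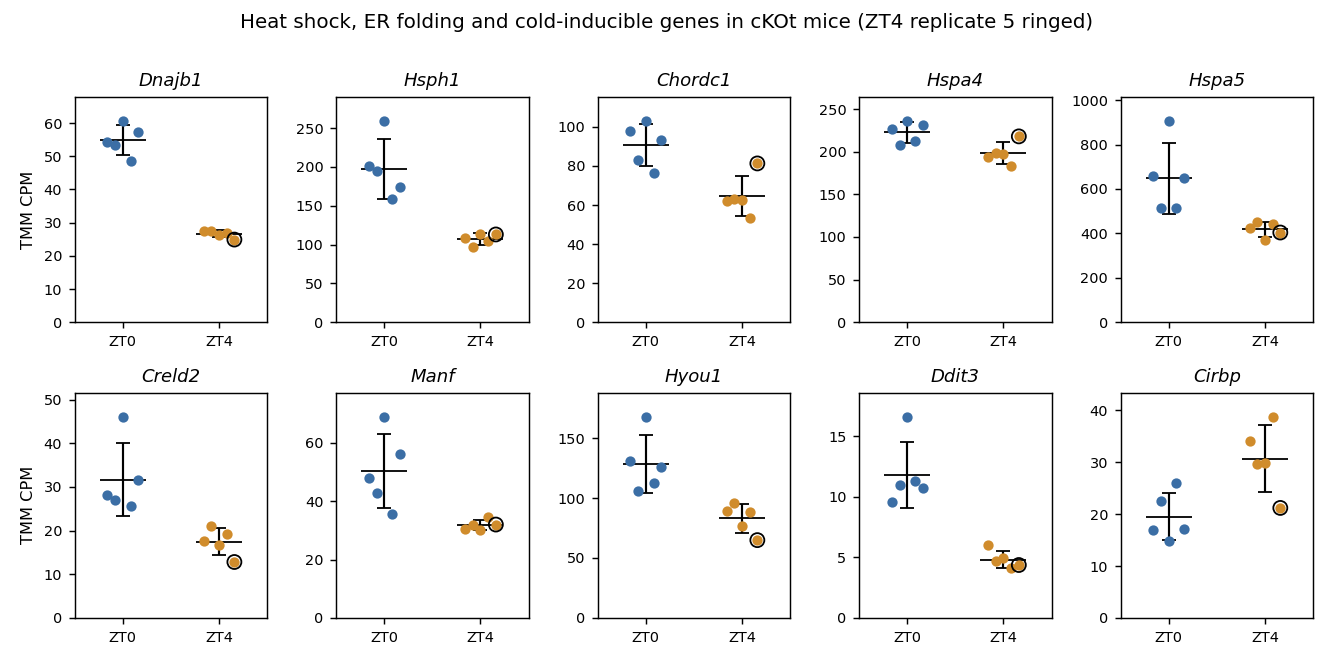
Level of 10 genes of heat shock, ER folding and cold response (y axis, TMM CPM from 0) in each cKOt mouse at ZT0 (blue) and ZT4 (orange), with bars for mean ± SD of 5 mice and a ring around ZT4 replicate 5. Dnajb1 drops from 48.7 to 60.6 CPM to 24.9 to 27.4 CPM, and Cirbp is the one gene of the 10 that rises.

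Promoters of the genes that fell together are shown for Hsph1 (chr5:149636337-149636586, minus strand, the first of 2 listed starts), Hspa5 (chr2:34771840-34772089, plus strand) and Creld2 (chr15:88819396-88819645, plus strand), again as 250 bases before the start on GRCm38.p6 from RefSeq. Capitals mark the paired heat shock sites GAANNTTC or TTCNNGAA (searched on both strands) in Hsph1 and the letters CCAAT, read on either strand, in Hspa5 and Creld2.
Hsph1: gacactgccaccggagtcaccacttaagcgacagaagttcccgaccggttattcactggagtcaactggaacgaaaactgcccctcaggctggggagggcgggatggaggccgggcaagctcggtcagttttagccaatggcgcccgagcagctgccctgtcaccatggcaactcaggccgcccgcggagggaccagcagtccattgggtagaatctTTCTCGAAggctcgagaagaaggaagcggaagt
Hspa5: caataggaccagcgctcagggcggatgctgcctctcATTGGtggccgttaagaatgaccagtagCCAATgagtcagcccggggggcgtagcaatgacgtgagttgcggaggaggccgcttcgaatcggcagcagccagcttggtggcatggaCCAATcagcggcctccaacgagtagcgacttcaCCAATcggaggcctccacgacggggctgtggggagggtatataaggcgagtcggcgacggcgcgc
Creld2: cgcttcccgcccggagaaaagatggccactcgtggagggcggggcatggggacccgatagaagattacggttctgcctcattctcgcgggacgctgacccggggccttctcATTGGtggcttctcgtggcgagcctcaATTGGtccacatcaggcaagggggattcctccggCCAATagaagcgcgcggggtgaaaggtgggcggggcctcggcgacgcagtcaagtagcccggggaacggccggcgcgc
The paired sites were in 12.8% of all promoters, in 12.4% of tested genes with a promoter at hand, in 3 of 10 heat shock genes called lower and in 5 of 5 heat shock genes not called, which is a description of letters only. The CCAAT box was in 33.8% of all promoters, in 39.9% of the tested genes and in 9 of 9 ER genes called lower, and in 19 of the 23 ER genes with a promoter.

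In the steroid-responsive and immediate early lists edgeR made 1 call. Tsc22d3 (GILZ), a glucocorticoid target, fell from 89.1, 78.1, 71.7, 74.4 and 73.6 CPM at ZT0 to 52.6, 57.8, 53.9, 44.1 and 53.2 CPM at ZT4 without overlap (log2 fold change -0.58 ± 0.139 (SE), adjusted p = 0.00473). It was the single call among 20 glucocorticoid-responsive genes, or 5% lower against 4.34% of all genes. Fkbp5 was at 76.5 to 128 CPM at ZT0 and 68.1 to 114 CPM at ZT4 (log2 fold change -0.37, adjusted p = 0.255). Of 27 immediate early genes 0 were called by edgeR or limma and 1 by DESeq2, and 4 had an unadjusted p under 0.05. Over all genes edgeR called 7.58%. Fos ranged from 5.21 to 22 CPM at ZT0 and from 4.71 to 21 CPM at ZT4.

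The largest falls among genes of at least 5 CPM included Slc25a25, Rcan1, Banp, Palld and Osgin1, which were in none of the gene lists. Slc25a25, a calcium-regulated ATP carrier of mitochondria, was at 160, 316, 384, 398 and 372 CPM at ZT0 and 110, 212, 106, 63.7 and 64.8 CPM at ZT4 (log2 fold change -1.41 ± 0.321 (SE), adjusted p = 0.00296). The ranges overlapped through ZT0 replicate 1. Rcan1, an inhibitor of calcineurin, showed the same mouse low at ZT0, with 69.8, 172, 182, 167 and 146 CPM at ZT0 and 54.6, 81.1, 57, 40.9 and 44 CPM at ZT4 (log2 fold change -1.25 ± 0.265 (SE), adjusted p = 0.00154). Banp, a nuclear DNA-binding protein, was at 22.3, 16.9, 21.9, 22.5 and 16.4 CPM at ZT0 and 10.1, 6.21, 8.93, 4.64 and 7.44 CPM at ZT4 (log2 fold change -1.38 ± 0.226 (SE), adjusted p = 5.43e-05). Its ranges were apart. Palld, a cytoskeletal protein, fell from 72.9 to 98.7 CPM to 40.4 to 53.1 CPM (log2 fold change -0.80 ± 0.113 (SE), adjusted p = 5.65e-06), and Osgin1, an oxidative stress-induced growth inhibitor, from 43.3 to 65.6 CPM to 11.1 to 32.5 CPM (log2 fold change -1.08 ± 0.188 (SE), adjusted p = 0.000132). All 5 calls held under all 21 alternatives.

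Less firm were Tiam2 (log2 fold change -1.25, adjusted p = 0.0323), an activator of RAC, and Noct (log2 fold change -0.80, adjusted p = 0.0362), a circadian NADP phosphatase. The call of Tiam2 was lost without any 1 of ZT0 replicates 1, 2 and 3 or ZT4 replicates 2, 3, 4 and 5 (adjusted p from 0.00523 to 0.0916 over 21 alternatives) and that of Noct without any 1 of ZT0 replicates 2, 3 and 4 or ZT4 replicates 1, 3, 4 and 5 (adjusted p from 0.00683 to 0.109 over 21 alternatives). Of the 12 largest falls, Banp, Tiam2, Ddit3, Osgin1, Dnajb1, Hsph1, Creld2 and Palld were lower in control mice too, and with Slc25a25, Rcan1, Noct and Per2, which were not called there, they had adjusted p values of the difference from 0.275 to 0.994.

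On the rising side, Cyp24a1, the enzyme that inactivates vitamin D (ENSMUSG00000038567, chr2:170482708-170497145, minus strand), had the largest change after Nr1d1 among the called genes of known name and at least 5 CPM. It was at 12.3, 52, 42.6, 38.6 and 11.4 CPM at ZT0 and 79.1, 110, 93.3, 98 and 62.1 CPM at ZT4. The groups were apart, with ZT0 replicates 1 and 5 low (log2 fold change 1.78 ± 0.49 (SE), adjusted p = 0.0166), and the call was lost without any 1 of ZT0 replicates 1 and 5 (adjusted p from 0.0091 to 0.0856 over 21 alternatives). Cyp27b1, which makes the active hormone and is known to move opposite to Cyp24a1, was at 4.45, 1.07, 5.25, 3.59 and 2.97 CPM at ZT0 and 0.914, 1.55, 1.59, 0.656 and 0.615 CPM at ZT4. It fell (log2 fold change -1.61 ± 0.484 (SE), adjusted p = 0.0297) with ZT0 replicate 2 inside the ZT4 range, but not without any 1 of ZT0 replicates 1 and 3 or ZT4 replicates 1, 4 and 5 (adjusted p from 0.00975 to 0.102 over 21 alternatives). In the list of phosphate, calcium and vitamin D the third call of 20 was Slc20a1 (PiT-1), a sodium-phosphate carrier, which fell from 62.5 to 99.1 CPM to 46.5 to 61.2 CPM (log2 fold change -0.66 ± 0.192 (SE), adjusted p = 0.0229) and was not called without any 1 of ZT0 replicates 3, 4 and 5 or ZT4 replicate 1 (adjusted p from 0.00269 to 0.0692 over 21 alternatives). In this list 5% rose and 10% fell, against 3.25% and 4.34% of all genes. The main renal phosphate carriers Slc34a1 (log2 fold change -0.10, adjusted p = 0.374) and Slc34a3 (log2 fold change -0.06, adjusted p = 0.768) were not called. None of Cyp24a1, Cyp27b1 and Slc20a1 was called in control mice, and the change did not pass as different between genotypes, with differences of 0.49, -1.90 and -0.25 (adjusted p = 0.933, 0.31 and 0.921).

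Other large rises were firm across mice. Erbb3, a receptor of neuregulins (ENSMUSG00000018166, chr10:128567523-128589652, minus strand), was at 109, 96.4, 71.7, 90.9 and 85.5 CPM at ZT0 and 160, 160, 152, 180 and 150 CPM at ZT4 (log2 fold change 0.86 ± 0.122 (SE), adjusted p = 5.65e-06). Slc34a2, a phosphate carrier better known from lung and gut, was at 8.03, 7.59, 8.57, 10.4 and 9.82 CPM at ZT0 and 17.1, 13.1, 15.2, 20.2 and 16.3 CPM at ZT4 (log2 fold change 0.88 ± 0.15 (SE), adjusted p = 9.11e-05). Zc3h6, a zinc finger gene, was at 5.1, 6.42, 3.91, 6.6 and 7.12 CPM at ZT0 and 13.8, 13.9, 15, 18.7 and 20 CPM at ZT4 (log2 fold change 1.38 ± 0.233 (SE), adjusted p = 8.01e-05). In these genes every mouse at ZT4 was above every mouse at ZT0. So it was for the zinc finger factor Ikzf4 (log2 fold change 1.02, adjusted p = 0.000801), N4bp2l1 (log2 fold change 0.94, adjusted p = 6.99e-05), the metalloprotease Adamts6 (log2 fold change 0.92, adjusted p = 0.00103), the DNA glycosylase Neil2 (log2 fold change 0.88, adjusted p = 0.00221) and Rhebl1, a RHEB-like GTPase (log2 fold change 1.04, adjusted p = 0.00136). The factor Klf11 overlapped (log2 fold change 1.02, adjusted p = 0.00307), at 4.34 to 10.7 CPM and 10.1 to 19.8 CPM, and missed the threshold in the fit of the 10 cKOt samples alone (adjusted p = 0.055, and 0.000886 to 0.055 over 21 alternatives). The others of this paragraph were called in all 21.

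**Figure D3:**
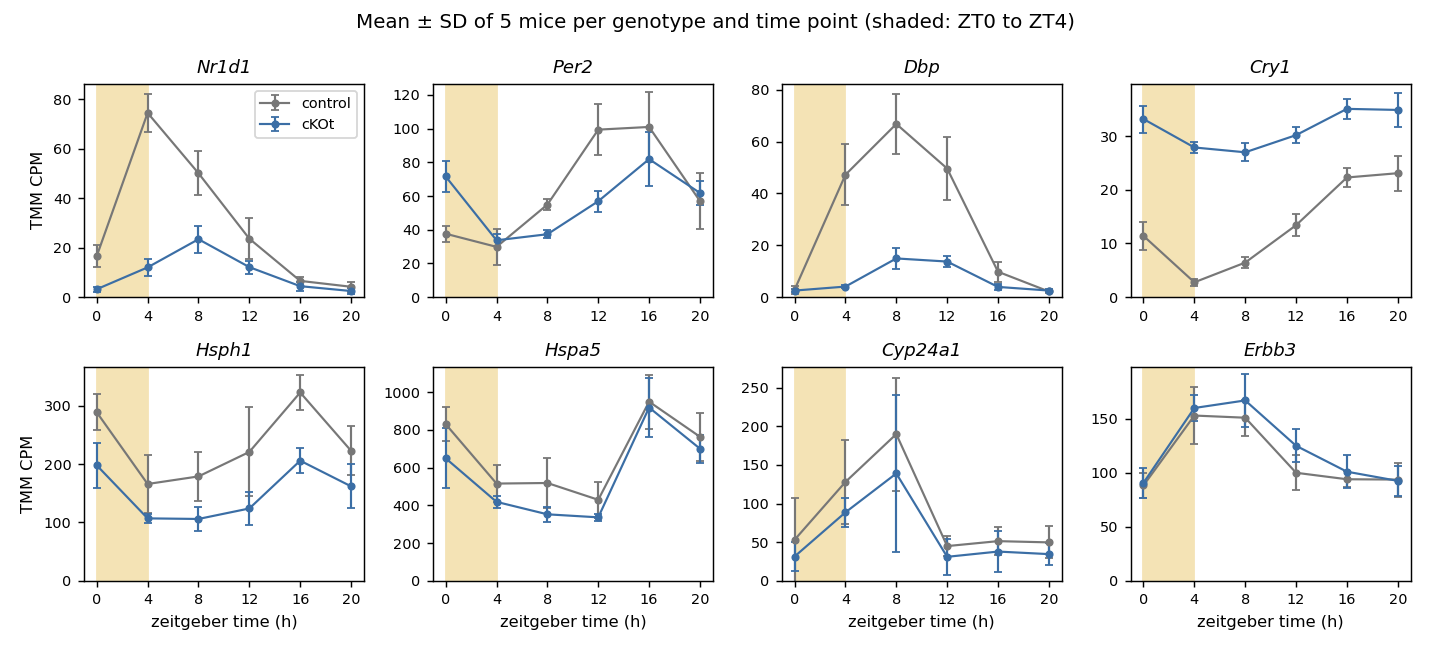
Mean ± SD of 5 mice (y axis, TMM CPM from 0) over zeitgeber time (x axis, h) for 8 genes in control (gray) and cKOt mice (blue), with ZT0 to ZT4 shaded. Nr1d1, Per2 and Cyp24a1 of cKOt mice change in the shaded interval, the means of Cry1 in cKOt lie between 27 and 35.1 CPM, and Hsph1 and Hspa5 fall in both genotypes.

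Placed in the day of cKOt mice, ZT0 and ZT4 were not always the extremes. The means of Nr1d1 at ZT0, ZT4, ZT8, ZT12, ZT16 and ZT20 were 3.17, 12, 23.4, 12.1, 4.4 and 2.44 CPM, with the highest mean at ZT8, whereas control mice had theirs at ZT4 (74.5 CPM). Per2 in cKOt mice was at 71.6, 33.7, 37.3, 56.9, 81.9 and 61.8 CPM in the same order and had its lowest mean at ZT4. Hspa5 was at 649, 418, 352, 336, 918 and 700 CPM, lowest at ZT12, and Hsph1 at 198, 107, 106, 124, 206 and 162 CPM. These further time points are given as levels and were not compared.

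Of 23 genes of cholesterol synthesis and its regulation by SREBP2, 1 fell (4.35%, against 4.34% of all genes) and 0 rose (against 3.25%), and the median was -0.11. In control mice 12 of the 23 genes fell (against 6.12% of all genes in control). The difference between genotypes passed for 0 of 23 by edgeR, DESeq2 or limma, with 5 at an unadjusted p under 0.05. Of 16 genes of fatty acid synthesis 1 fell (6.25%), which was Acly (log2 fold change -0.20, adjusted p = 0.0392), a call lost without any 1 of ZT0 replicates 1, 3 and 4 or ZT4 replicates 1, 4 and 5 (adjusted p from 0.00961 to 0.148 over 21 alternatives), and Fasn (log2 fold change -0.47, adjusted p = 0.222) did not pass.

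Among 29 PPAR targets and genes of fatty acid oxidation, 4 rose (13.8%, against 3.25% of all genes) and 0 fell (against 4.34%), and the median was -0.004. Slc27a2, a fatty acid transporter and acyl-CoA synthetase, went from 2460 to 3160 CPM at ZT0 to 3220 to 3520 CPM at ZT4 (log2 fold change 0.23 ± 0.0589 (SE), adjusted p = 0.0079), with adjusted p from 0.00338 to 0.0809 over 21 alternatives. Cpt1a, which brings long acyl chains into mitochondria, went from 353 to 425 CPM to 461 to 499 CPM (log2 fold change 0.26 ± 0.0706 (SE), adjusted p = 0.0128) and was not called without ZT0 replicate 5 (adjusted p from 0.00708 to 0.0651 over 21 alternatives). The ranges of both genes were apart. The other calls, Cyp4b1 (log2 fold change 0.38, adjusted p = 0.0219) and Txnip (log2 fold change 0.35, adjusted p = 0.0394), were lost without several single libraries, Cyp4b1 without any 1 of ZT0 replicate 5 or ZT4 replicates 1, 3 and 4 (adjusted p from 0.00307 to 0.186 over 21 alternatives) and Txnip without any 1 of ZT0 replicates 1, 2, 3 and 5 or ZT4 replicates 2, 4 and 5 (adjusted p from 0.00675 to 0.295 over 21 alternatives). Within batches edgeR called 0 of the 29, against 4 by edgeR, DESeq2 and limma over all samples, where 6 had an unadjusted p under 0.05. Pdk4, which blocks glucose oxidation, was at 16.3, 26.7, 18.5, 26.3 and 20.5 CPM at ZT0 and 25.7, 45, 34.3, 51.4 and 49.4 CPM at ZT4 (log2 fold change 0.89 ± 0.319 (SE), adjusted p = 0.0758), without passing.

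For glucose production, Igfbp1, an insulin-repressed binding protein of growth factors, rose from 0.651, 0.642, 0.214, 0.388 and 1.3 CPM at ZT0 to 2.23, 1.7, 2.57, 2.47 and 2.24 CPM at ZT4. The groups were apart at a low level (log2 fold change 1.83 ± 0.408 (SE), adjusted p = 0.00242). Got1 fell slightly (log2 fold change -0.24, adjusted p = 0.00973, up to 0.108 over 21 alternatives), and the gluconeogenic enzymes Pck1 (log2 fold change -0.41, adjusted p = 0.188) and G6pc (log2 fold change -0.27, adjusted p = 0.344) were not called. Pck1 was at 2700, 2650, 3030, 2880 and 2730 CPM at ZT0 and 1700, 3300, 2060, 1650 and 1510 CPM at ZT4. Only ZT4 replicate 2 lay above the ZT0 range, and without it Pck1 fell (adjusted p = 0.0173, and 0.00269 to 0.377 over 21 alternatives).

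Transport genes of the tubule changed by small amounts. In the list of sodium and potassium transport 4 of 26 fell (15.4%, against 4.34% of all genes) and 0 rose (against 3.25%), with a median of -0.06. Kcnj10, the basolateral potassium channel Kir4.1, went from 93.2 to 111 CPM at ZT0 to 73.9 to 88.9 CPM at ZT4 (log2 fold change -0.29 ± 0.0645 (SE), adjusted p = 0.00282), with adjusted p from 0.00139 to 0.1 over 21 alternatives. Bsnd (barttin), the subunit of basolateral chloride channels, was at 55.9, 55.4, 54.7, 59.5 and 55.3 CPM at ZT0 and 48, 44.9, 41.3, 41.7 and 37.6 CPM at ZT4 (log2 fold change -0.30 ± 0.0737 (SE), adjusted p = 0.00595). Both ranges were apart. Kcnj1 (ROMK), at 290 to 380 CPM and 254 to 391 CPM, and the kinase gene Oxsr1, at 61.3 to 68 CPM and 52.4 to 66.1 CPM, overlapped. Their calls (log2 fold change -0.25, adjusted p = 0.0342 and -0.13, adjusted p = 0.0199) were lost without any 1 of ZT0 replicates 1, 3 and 5 or ZT4 replicates 1, 3 and 4 (adjusted p from 0.0136 to 0.453 over 21 alternatives) and without any 1 of ZT0 replicate 3 and ZT4 replicate 2 (adjusted p from 0.00723 to 0.981 over 21 alternatives). The calls of Kcnj1 and Oxsr1 were also lost without the RUVs factors, with batch in their place, within batches and without the filter on low counts. All 4 genes were lower in control mice too. Slc9a3, the sodium-proton exchanger NHE3 of the proximal tubule, did not pass the test in cKOt (log2 fold change -0.16, adjusted p = 0.208) and rose in control mice (0.33 ± 0.0734 (SE), adjusted p = 0.0016). The 2 changes differed (difference -0.49 ± 0.106 (SE), adjusted p = 0.0164), which was lost in 5 of 30 alternatives (adjusted p up to 0.079), namely within batches or without cKOt ZT0 replicate 1, cKOt ZT4 replicate 4, control ZT0 replicate 1 or control ZT4 replicate 2.

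Of 10 glucose and monocarboxylate transporters, Slc5a12, a lactate carrier, rose (log2 fold change 0.33, adjusted p = 0.0158) and Slc5a2 (SGLT2) fell (log2 fold change -0.20, adjusted p = 0.0281). Each was 10% of the list, against 3.25% of all genes higher and 4.34% lower. ZT4 replicate 5 held the highest Slc5a12 (839 CPM) and the lowest Slc5a2 (258 CPM) of the 10 mice, and the calls were lost without any 1 of ZT0 replicates 1 and 3 or ZT4 replicate 5 (adjusted p from 0.00398 to 0.0797 over 21 alternatives) and without any 1 of ZT0 replicates 1, 3, 4 and 5 or ZT4 replicates 2, 3 and 4 (adjusted p from 0.00827 to 0.165 over 21 alternatives). Of 20 amino acid transporters, Slc6a19 (B0AT1), which takes up neutral amino acids from urine, went from 253 to 316 CPM to 353 to 447 CPM without overlap (log2 fold change 0.45 ± 0.112 (SE), adjusted p = 0.00734), under all 21 alternatives. The taurine carrier Slc6a6 rose (log2 fold change 0.30, adjusted p = 0.0181) and Slc3a2 fell (log2 fold change -0.26, adjusted p = 0.0431), the first not without any 1 of ZT0 replicates 3 and 5 or ZT4 replicate 3 (adjusted p from 0.0082 to 0.265 over 21 alternatives) and the second not without any 1 of ZT0 replicates 1, 3, 4 and 5 or ZT4 replicates 1, 2, 3, 4 and 5 (adjusted p from 0.0192 to 0.143 over 21 alternatives). In the amino acid list 10% rose and 5% fell. Aquaporins with vasopressin signaling (0 of 11) and organic ion and drug transporters (0 of 20) had no call by edgeR, DESeq2 or limma, with 0 and 2 at an unadjusted p under 0.05. Over all genes edgeR called 7.58%, and at that share lists this short can hold 0 calls.

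Genes of cell cycle arrest and p53 targets held 4 rises among 19 (21.1%, against 3.25% of all genes). They held 0 falls (against 4.34%), and the median was -0.09. Ccng2, an atypical cyclin of resting cells, was at 23.8, 23.4, 24.1, 21.7 and 22.9 CPM at ZT0 and 32.3, 34.4, 33, 35 and 38.9 CPM at ZT4 (log2 fold change 0.51 ± 0.0752 (SE), adjusted p = 9.68e-06). Btg1, an antiproliferative gene, went from 47.1 to 59.7 CPM to 62.6 to 72.3 CPM (log2 fold change 0.33 ± 0.071 (SE), adjusted p = 0.00179) and Trp53inp1 from 54 to 65 CPM to 75 to 118 CPM (log2 fold change 0.43 ± 0.111 (SE), adjusted p = 0.0102). These ranges were all apart. Btg1 missed the threshold within batches (adjusted p up to 0.0678 over 21 alternatives). Trp53inp1 was not called without ZT0 replicate 3 (adjusted p from 0.00358 to 0.0533 over 21 alternatives), and the call of Sesn2 (log2 fold change 0.41, adjusted p = 0.0229) was lost without any 1 of ZT0 replicate 5 or ZT4 replicates 1 and 3 (adjusted p from 0.0134 to 0.325 over 21 alternatives). Cdkn1a (p21) was at 16.7 to 19.6 CPM and 10.1 to 22.4 CPM (log2 fold change -0.19, adjusted p = 0.661). Of 22 genes of proliferation and DNA replication 0 were called by edgeR, DESeq2 or limma (all genes 7.58% by edgeR), and 1 had an unadjusted p under 0.05.

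In autophagy 3 of 24 genes rose (12.5%, against 3.25% of all genes) and 1 fell (4.17%, against 4.34%), with a median of 0.03. Wipi1, which binds lipids of the growing autophagosome, went from 31.8 to 42.9 CPM to 44.2 to 54.2 CPM (log2 fold change 0.47 ± 0.0838 (SE), adjusted p = 0.000173). Gabarapl1, an ATG8 protein, went from 510 to 565 CPM to 640 to 741 CPM (log2 fold change 0.34 ± 0.0671 (SE), adjusted p = 0.000683) and Atg14 from 16 to 20.2 CPM to 20.6 to 24.2 CPM (log2 fold change 0.28 ± 0.0741 (SE), adjusted p = 0.0111). Tfeb, the regulator of lysosomal genes, was at 10, 11.2, 9.59, 12.1 and 10.3 CPM at ZT0 and 7.31, 8.42, 6.57, 8.48 and 2.91 CPM at ZT4 (log2 fold change -0.41 ± 0.101 (SE), adjusted p = 0.00695), with ZT4 replicate 5 the lowest. Each of these ranges was apart, and each call held without any single library. Tfeb was not called without the RUVs factors and Atg14 was not called within batches, with adjusted p up to 0.133 and 0.0904 over 21 alternatives. The 3 rises were called in control mice as well, and the fall of Tfeb was not (-0.06 ± 0.0979 (SE), adjusted p = 0.759), with no called difference (adjusted p = 0.553).

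Of 18 NRF2 targets and glutathione genes 3 fell (16.7%, against 4.34% of all genes) and 0 rose (against 3.25%). The median was 0.004, with 9 of the 18 above 0, and without ZT4 replicate 5 only 1 fell. Hmox1, heme oxygenase, went from 20.2 to 26.2 CPM to 11 to 15.2 CPM (log2 fold change -0.66 ± 0.197 (SE), adjusted p = 0.0294), and Txnrd1 (log2 fold change -0.19, adjusted p = 0.0434) and Srxn1 (log2 fold change -0.22, adjusted p = 0.0443) fell less. Their calls were lost without any 1 of ZT0 replicates 1 and 3 or ZT4 replicates 1, 2 and 4 (adjusted p from 0.000442 to 0.102 over 21 alternatives), without any 1 of ZT0 replicates 1, 2 and 3 or ZT4 replicates 1, 2, 4 and 5 (adjusted p from 0.0337 to 0.132 over 21 alternatives) and without any 1 of ZT0 replicates 1, 3 and 5 or ZT4 replicates 1, 2, 4 and 5 (adjusted p from 0.0299 to 0.224 over 21 alternatives). In polyamine metabolism 2 of 11 fell, Amd1, the decarboxylase of S-adenosylmethionine (log2 fold change -0.57 ± 0.102 (SE), adjusted p = 0.000189, up to 0.0638 over 21 alternatives), which held without any single library, and Srm (log2 fold change -0.29, adjusted p = 0.0457), which was lost without any 1 of ZT0 replicates 1, 2, 3 and 5 or ZT4 replicates 1, 3, 4 and 5 (adjusted p from 0.0325 to 0.167 over 21 alternatives). The 2 falls were 18.2% of the polyamine list, against 4.34% of all genes. Odc1 was at 1130 to 1770 CPM and 1020 to 1740 CPM. NAD metabolism (0 of 21), cytoplasmic ribosomal proteins (0 of 76) and mitochondrially encoded proteins (0 of 7) had no call by edgeR, DESeq2 or limma, with 4, 2 and 1 at an unadjusted p under 0.05. The share called over all genes by edgeR was 7.58%.

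**Figure D4:**
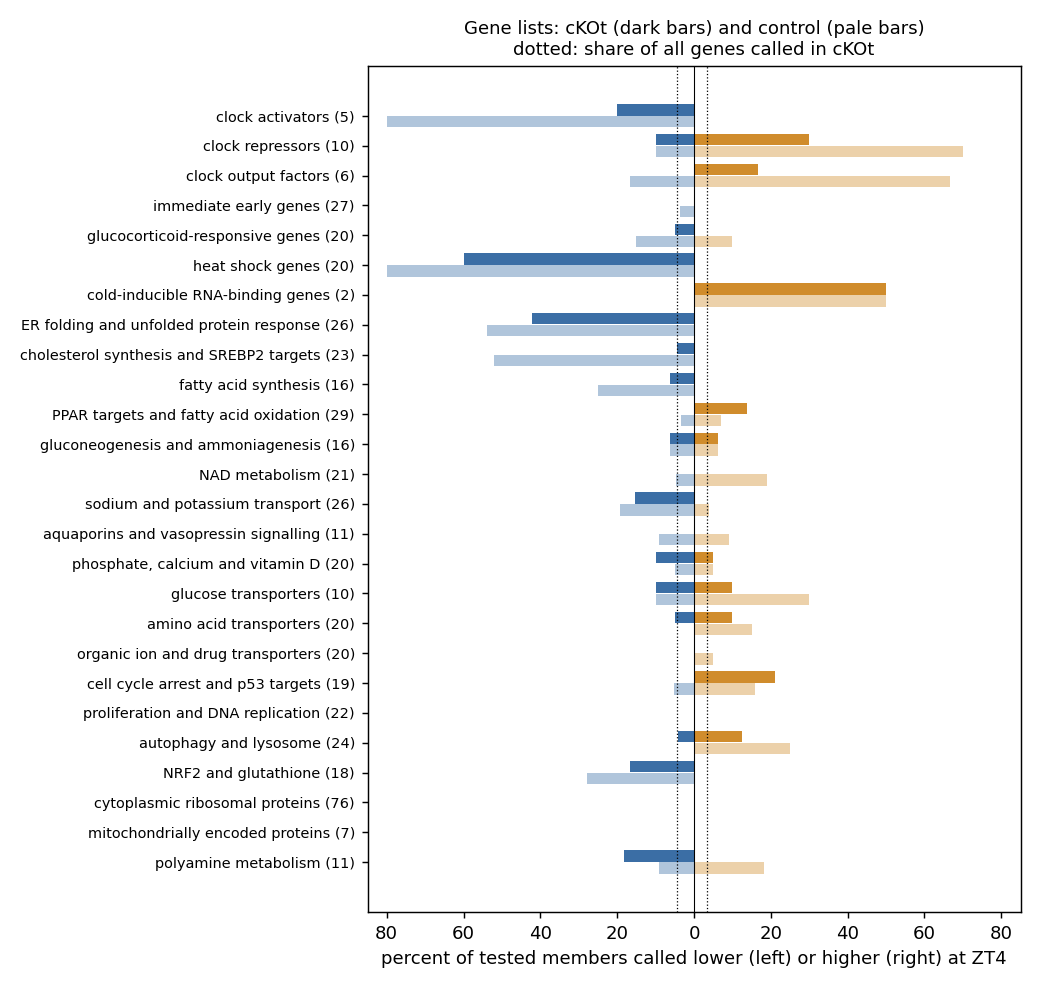
Percent of tested members called lower (left) or higher (right) at ZT4 (x axis) for 26 gene lists (y axis, number tested in parentheses), with dark bars for cKOt, pale bars for control mice and dotted lines at the shares of all genes called in cKOt (4.34% and 3.25%). Heat shock and ER folding genes reach far to the left in both genotypes, and the clock lists and cholesterol synthesis have longer bars in control mice.

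Both genotypes shared much of the change. Of the genes called in cKOt 586 were called in control mice, 584 in the same direction, which is 49.5% of the 1179 cKOt calls and 31.9% of the 1833 control calls. The sign was the same in control mice for 94% of the cKOt calls and for 67.8% of all tested genes. No mouse served in both comparisons, but the RUVs factors were estimated over all 60. Of the genes named by the largest interaction outside the clock, Rhobtb1 was at 132, 114, 112, 120 and 133 CPM at ZT0 and 121, 128, 118, 121 and 117 CPM at ZT4 in cKOt and fell in control mice from 102 to 44 CPM (difference 1.22 ± 0.104 (SE), adjusted p = 3.95e-12). Ypel2 was at 48.5 to 79.1 CPM and 69.2 to 82.2 CPM in cKOt and fell in control mice from 49.1 to 17 CPM (difference 1.70 ± 0.194 (SE), adjusted p = 3.33e-08). The unnamed gene AC117816.1 behaved alike, with 0.07 in cKOt and -0.43 in control mice (difference 0.50 ± 0.0717 (SE), adjusted p = 9.92e-06). These 3 differences held under all 30 alternatives.

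**Figure D5:**
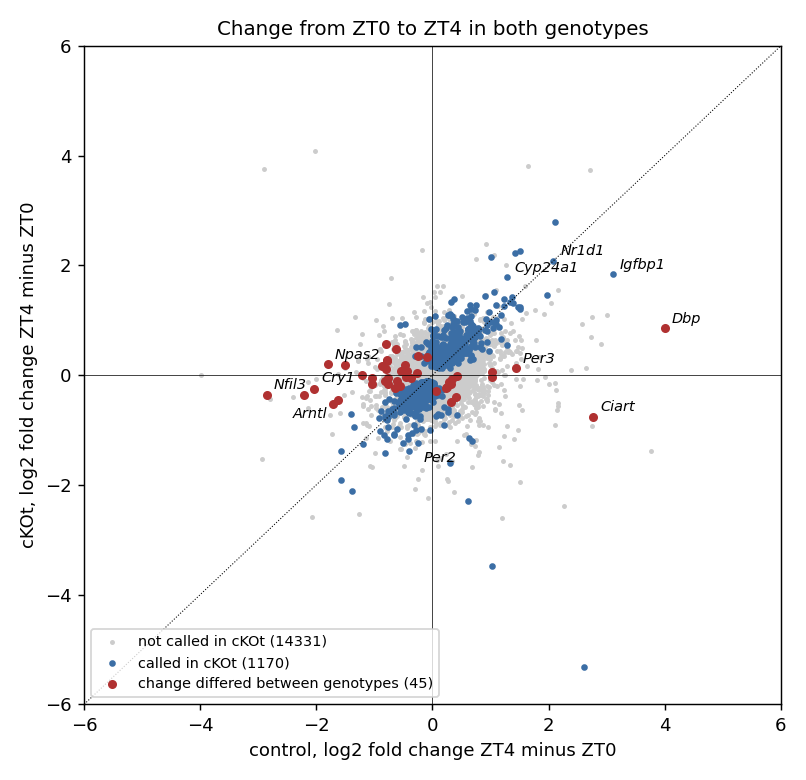
Log2 fold change from ZT0 to ZT4 in control (x axis) and cKOt mice (y axis) for 15546 genes, with the line of equal change dotted. Red points are the 45 genes whose change differed between genotypes, blue points the other 1170 genes called in cKOt, and gray points the remaining 14331. Nr1d1 lies near the line (2.09 in cKOt and 2.08 in control), Dbp lies below it (0.86 and 4.00), and Cry1, Nfil3 and Arntl, which were not called in cKOt, lie above it.

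Markers of the cell types that the tissue could hold were compared as well. None of the lists of thick ascending limb, distal tubule, collecting duct, podocyte, fibroblast, macrophage, B cell, T cell, red cell, injury, fat or adrenal markers held a called gene by edgeR, DESeq2 or limma, with 2 genes in all at an unadjusted p under 0.05, 1 macrophage and 1 injury gene. The liver-secreted list had 0 calls by edgeR or limma, 1 by DESeq2 and 2 at an unadjusted p under 0.05. Of all genes 7.58% were called by edgeR, and at that share lists this short can hold 0 calls. Among 7 endothelial markers Pecam1 rose (0.19, adjusted p = 0.0215), and 6 had an unadjusted p under 0.05, with a median of 0.165. In the proximal tubule list Slc5a12 and Slc5a2 were called, as given above, and its sum was at 16500 to 19000 CPM at ZT0 and 16500 to 17800 CPM at ZT4. Fat markers summed to 38.6 to 108 CPM at ZT0 (median 44.6) and 41.6 to 54 CPM at ZT4 (median 44.2). The median log2 fold change of the single genes was -1.31, while the median sum hardly differed between the times. Of 5 neutrophil markers 2 were at 0 in all 10 mice and none reached the minimum for testing. The part of cell makeup in the results was not tested.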

How the data were processed

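Kidney RNA libraries of 60 mice were used, which the study had kept from a larger sequenced set by RNA quality and by closeness to the other replicates of a group, so the spread between mice may be understated. Per the labels, stranded TruSeq mRNA libraries were made. The submitters' processing notes name bcl2fastq, cutadapt 1.8, STAR 2.5.3a, HTSeq 0.9.1 and the GRCm38 build, and whether the counting used strand is not given in the sources used here. The deposited values are raw read counts per Ensembl gene made by the authors, with no normalization. The 5 summary lines of each file were left out (reads on no feature were 8.35 to 10.6% and ambiguous reads 0.953 to 1.21% of uniquely aligned reads in the cKOt libraries used). Totals of 17791420 to 19691384 reads per library set the precision.

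Kept were the 15546 of 55335 genes that reached 1 CPM in any sample. Counts were fitted with edgeR 4.0.16 (TMM, quasi-likelihood) in R 4.3.3, with 12 groups of genotype and time and 2 RUVs factors rewritten from the published method. P values were adjusted by Benjamini-Hochberg over all genes. Contrasts were ZT4 minus ZT0 in cKOt, the same in control, and their difference. CPM values used TMM library sizes and were not corrected for RUVs. Batches came from the sample table of the study, and 4 of 6 held cKOt mice of both times (8 mice). Alternatives used DESeq2 1.42.0 (Wald test, size factors), limma 3.58.1 (trend), other filters, covariates and samples, a fold threshold, and each mouse left out. Samples were separate animals, and same-numbered samples were checked for pairing (closing section). The fit was tested on simulated data: of 15247 genes, 93 of 100 with a 1.5-fold and 98 of 100 with a 2-fold change were recovered, with 10 false among 201 calls. Only genes of at least 5 CPM were changed, and only in the cKOt ZT4 group. The counts were drawn from the kind of model that was fitted, without an outlying library. The recovery therefore holds for data that follow the model, and how far it holds with a library such as ZT4 replicate 5 was not tested. Changes below 1.5-fold, where the median called change lies (0.321 on the log2 scale), were not simulated, so recovery there is not known.

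Named are all genes of the clock lists, the 12 largest rises and falls of genes with a mean of at least 5 CPM without predicted genes, the first 2 members and up to 4 called members with the smallest p value of each of 26 functional lists, and the 8 genes of at least 5 CPM with the smallest p value of the difference. There were also 16 marker lists. The comparison and the lists were chosen with earlier results of these data known. Promoters were the 250 bases before RefSeq starts, found for 11416 of 15542 tested genes by symbol. A few of the named genes are not reported here.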

Additional observations from a re-analysis of the deposited data

Results flagged for a closer look

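In 11 of 134 groups of 5 mice of the called genes, the highest or lowest mouse lay apart from its group by Dixon's test. For independent normal samples chance gives about 1 in 20 groups. These genes were chosen as called and come from the same mice, so that rate need not hold here. High mice were ZT0 replicate 3 for Ddit3 (16.6 CPM), ZT0 replicate 4 for Bsnd (59.5 CPM), ZT0 replicate 5 for Slc5a12 (484 CPM), ZT4 replicate 1 for Tiam2 (5.33 CPM), ZT4 replicate 2 for Noct (17.9 CPM) and Txnip (385 CPM), and ZT4 replicate 5 for Trp53inp1 (118 CPM). Low mice were ZT0 replicate 5 for Cpt1a (353 CPM), ZT4 replicate 4 for Palld (40.4 CPM) and Kcnj10 (73.9 CPM), and ZT4 replicate 5 for Cyp4b1 (1350 CPM). ZT4 replicate 5, which lay apart on the first principal component, was not past Dixon's limit there (ratio 0.631 against 0.71).

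The change from ZT0 to ZT4 differed between the genotypes, by the interaction in edgeR, in 12 of the named genes given here. On the log2 scale, cKOt minus control, it was more upward in cKOt for Nfil3 (2.50), Npas2 (2.00), Arntl (1.86), Cry1 (1.79), Ypel2 (1.70), Rhobtb1 (1.22) and AC117816.1 (0.50). It was more downward for Ciart (-3.52), Dbp (-3.14), Per3 (-1.31), Tef (-0.97) and Slc9a3 (-0.49).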

How the results depend on the processing

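The main counts in cKOt were 505 genes higher and 674 lower. Higher genes numbered 216 with the 10 cKOt samples fitted alone and 266 within batches. Lower genes numbered 433 without a filter, 335 without RUVs factors, 333 with batch in their place, 293 with 20 samples, 156 with 10 samples, 304 within batches and 363 with a fold change above 1.2 as well. In control mice, 881 genes higher became 506, 497, 421 and 175, and 952 lower became 503, 514, 495 and 186, without RUVs factors, with batch, with 20 samples and within batches, and 471 lower with the fold threshold. The difference, with 31 genes more upward and 14 more downward in cKOt, gave 49 and 26 by the DESeq2 Wald test and 15 more upward within batches. Leaving out each mouse gave 261 to 488 higher and 388 to 614 lower in cKOt, 664 to 933 and 696 to 966 in control, and 19 to 42 and 7 to 27 for the difference.

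With a replicate block, 486 genes were higher and 646 lower in cKOt, 888 and 947 in control, and 30 and 12 for the difference. The numbers partly follow batch, which 3 of the 5 same-numbered pairs share. Deviations of the 5 pairs correlated from -0.0774 to 0.228 (mean 0.0927), not all above 0.1, those of the 20 other pairs at a mean of -0.0214, and those of the 4 pairs in 1 batch from 0.0368 to 0.228 (mean 0.162). The numbers were not taken to pair the mice.

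Of 67 named genes called, 31 kept the call in all 21 alternatives and 43 in all that left out 1 cKOt mouse. Of 1407 values 241 lost the call and 0 turned sign. Without the RUVs factors 16 of the 67 genes lost the call. They were Clock, Cry2, Cyp24a1, Cyp4b1, Dbp, Hsp90b1, Hspa4, Kcnj1, Oxsr1, Sesn2, Slc5a2, Slc6a6, Srm, Srxn1, Tfeb and Txnip. Among 59 genes not called, 8 values passed the threshold, and 22 genes took the other sign in 87 values. The causes were not tested. Depth limits genes such as Ciart, and with 5 mice a p above the threshold does not show equal levels.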

Other observations

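Some genes with a called difference between genotypes lie outside the clock. They were chosen after their values were seen. Pnrc1, a nuclear receptor coactivator, rose in cKOt from 48.1 ± 6.04 CPM (SD, n = 5) to 73.4 ± 5.5 CPM and fell in control mice from 43.2 ± 7.58 to 24.6 ± 3.1 CPM (difference 1.36 on the log2 scale, adjusted p = 0.000372 by edgeR). With Narf, which fell in cKOt from 50.4 to 42.7 CPM and rose in control mice from 51.8 to 60.7 CPM (difference -0.48, adjusted p = 0.0127), it was 1 of 2 genes called in opposite directions. Slc16a1, a carrier of lactate and ketone bodies, was at 139 ± 4.55 and 142 ± 14.2 CPM in cKOt and fell in control mice from 108 ± 15.8 to 51 ± 19.1 CPM (difference 0.99, adjusted p = 0.0225). Upp2, a uridine phosphorylase, was at 18.4 ± 1.66 and 19.1 ± 2.82 CPM in cKOt and rose in control mice from 15.7 ± 2.07 to 30.9 ± 3.2 CPM (difference -1.06, adjusted p = 0.00038).

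The nuclear receptor gene Ppard was at 124 ± 17.9 CPM at ZT0 and 79.2 ± 29 CPM at ZT4 in cKOt, without a call (adjusted p = 0.139), and fell in control mice from 47.7 ± 18.9 to 16.8 ± 6.13 CPM (difference 1.17, adjusted p = 0.0379). Of the genes with a called difference, 4 were called in cKOt alone. Coq10b and B3galt5 fell (log2 fold changes -0.50 and -0.29), and Lrig2 and Zbtb39 rose (0.35 and 0.33).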
